A study of Mus musculus with 6 samples.

Results

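The ETS factors are transcription factors that share an ETS domain, a winged helix-turn-helix fold that binds DNA around a GGAA core. The 10 genes described here, Etv1, Etv4, Etv5, Ets1, Ets2, Elf1, Elf2, Elf3, Elk3 and Gabpa, were chosen by name, with earlier results of these data known, and found by Ensembl identifier among the 51826 genes of the deposited count table, where all 10 were present. The mouse ETS genes of the annotation outside this set numbered 17, of which 9 passed the filter on low counts. The 17 include Etv3l, annotated as an unprocessed pseudogene, which had 0 counts in all libraries. RNA was compared between V6.5 mouse embryonic stem cells (ESC), a line labelled wildtype and held in LIF with inhibitors of GSK3 and MEK (2i), and epiblast-like cells (EpiLC) made from the same line and taken at day 3 after LIF and 2i were left out. The base medium with 15% fetal bovine serum was common to both. Each state had 3 libraries of ribosome-depleted total RNA, with 9710410 to 22879812 counts each. All libraries came from a single cell line, and the labels do not say whether libraries of a state were separate cultures, so p-values measure the spread between these libraries.

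ETS factors are a main nuclear end point of receptor tyrosine kinase signalling. ERK, the kinase that MEK activates, phosphorylates ETS1, ETS2 and the TCF subfamily (ELK1, ELK3, ELK4), and the PEA3 subfamily (ETV1, ETV4, ETV5) is induced at the RNA level when ERK releases the repressor Capicua, encoded by Cic, from its genes. In embryonic stem cells ETV4 and ETV5 are known as effectors of FGF4 and ERK signalling, ELF3 is a factor of epithelia, and GABPA is the DNA-binding subunit of GABP, a regulator of housekeeping and mitochondrial genes. The ESC medium contained a MEK inhibitor, so the cell state, LIF, the GSK3 inhibitor and the MEK inhibitor cannot be told apart in this comparison.

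Sequence before a RefSeq start is shown for Gabpa and Etv5, the members of highest level per kb of exon in EpiLC, with the GGAA core of the family in capitals on either strand (GGAA or TTCC). RefSeq promoter windows on GRCm38.p6 were matched by symbol for 8 of the 10 members, 12 windows in all. Etv4 and Ets1 had no window. The 250 bases before each start were searched on both strands. For Gabpa the last 100 of these bases are printed (chr16:84835024-84835123, plus strand). The other 150 lie in annotated untranslated exons, of Gabpa or of another gene. For Etv5 the whole window before the downstream of its 2 RefSeq starts is printed (chr16:22438369-22438618, minus strand). Both stretches lie within the annotated gene, downstream of its annotated start, and outside annotated untranslated exons. Whether they are intronic was not checked.
Gabpa: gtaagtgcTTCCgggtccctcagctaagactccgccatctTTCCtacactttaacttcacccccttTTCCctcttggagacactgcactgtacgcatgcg
Etv5: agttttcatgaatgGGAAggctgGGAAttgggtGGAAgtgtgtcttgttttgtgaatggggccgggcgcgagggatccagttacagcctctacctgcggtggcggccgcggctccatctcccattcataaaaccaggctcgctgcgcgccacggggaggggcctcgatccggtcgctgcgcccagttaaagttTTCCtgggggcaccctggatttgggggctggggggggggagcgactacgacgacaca

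GGAA was found in 10 of the 12 member windows and in 93.4% of the 32851 mouse promoter windows of this length, so its presence sets no member apart. The longer form CCGGAAG, which contains GGAA, was found in 1 member window, that of Gabpa, against 6.91% of all windows, and lies in the stretch printed. AGGAAG, which also contains GGAA, was found in 4 member windows, one each of Gabpa, Etv1, Elk3 and Elf2, against 29.5% of all windows. The octamers TGAATGAA and TGAATGGA, known for Capicua, were not found in any member window, and were found in 1.08% and 1.014% of all windows. Other forms of the octamer were not searched, so these counts do not show that the windows lack them. Etv4 and Ets1 had no window, so nothing is known here of their promoters. A match is a run of letters and not evidence of binding.

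Of the 10 members, 2 rose in EpiLC (Ets1 and Etv1), 6 fell (Elf3, Elk3, Gabpa, Ets2, Etv4 and Elf2) and 2 were not called (Etv5 and Elf1), by edgeR's quasi-likelihood test at a Benjamini-Hochberg adjusted p under 0.05. That is 8 of 10 called, while 64.6% of the 14996 genes tested were called in this comparison, 32% higher and 32.6% lower, so a call is common among all genes. The median log2 fold change, EpiLC minus ESC, was -0.42 over the members and 0.01 over all genes tested. The changes of Elf3, Ets1 and Elk3 were at least 2-fold, as were those called for 29.4% of all genes. In 7 of the 10 members the libraries of the states did not overlap, which held for 70.2% of all genes. The plot of fold changes sets the members beside the other ETS genes.

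**Figure D1:**
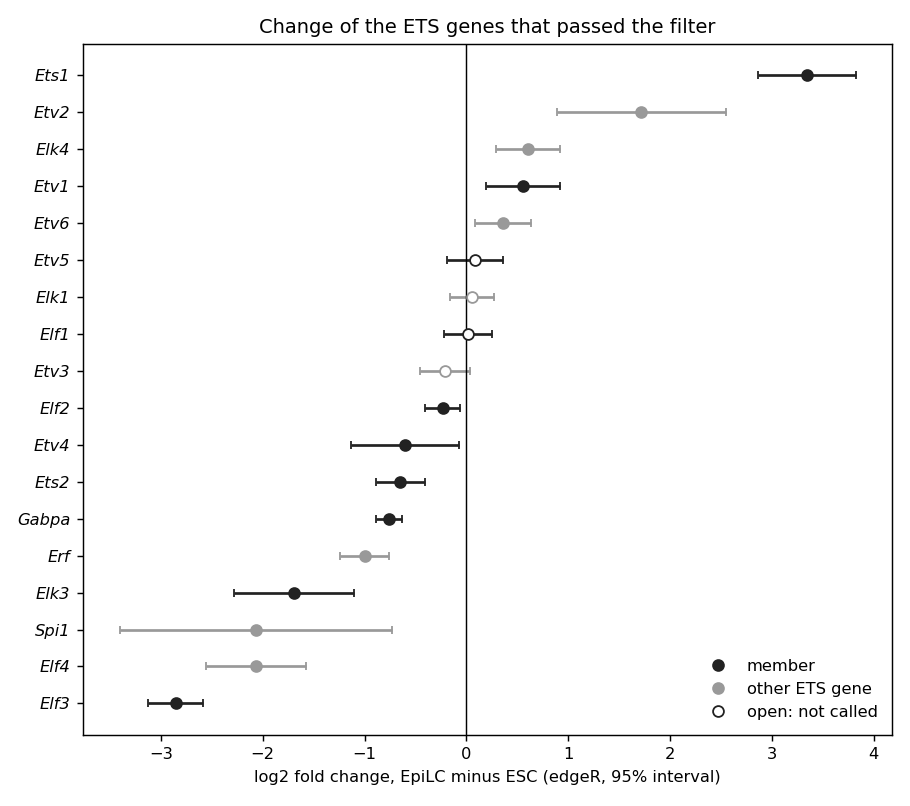
Log2 fold change (x axis, EpiLC minus ESC, with 95% intervals from edgeR) of 18 ETS genes; black points are members, grey points other ETS genes, and open points were not called. Ets1 (3.34) lies farthest to the right and Elf3 (-2.85) farthest to the left. Spic, with no count in EpiLC, is left out.

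ESC replicate 3 stood apart from its group before any ETS gene was considered. Comparing its counts with those of ESC replicates 1 and 2 gave a chi-square per degree of freedom of 29.0 and 29.7, against 2.83 between replicates 1 and 2 and 2.30 to 4.42 among EpiLC pairs. The markers of each state followed the labels: all 7 ESC markers fell, from a sum of 3687 to 3886 CPM down to 780 to 786 CPM, and all 5 EpiLC markers rose, from 130 to 140 CPM up to 1180 to 1451 CPM. The 6 primitive endoderm markers summed to 3.01 to 8.45 CPM in ESC and 15.1 to 16.6 CPM in EpiLC. Of the 3 tested, Dab2 (0.58 ± 0.64 to 9.996 ± 0.95 CPM) and Gata4 (2.55 ± 1.57 to 4.94 ± 0.49 CPM) rose and Sox17 (1.46 ± 0.47 to 0.060 ± 0.10 CPM) fell. Levels below are CPM, read counts scaled to a common TMM-adjusted library total, and are given for replicates 1, 2 and 3 in order, then as mean ± SD with n = 3 libraries. In bulk RNA, fewer cells that express a gene and less RNA per cell cannot be told apart.

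Within the PEA3 subfamily Etv1 was called higher, Etv4 was called lower and Etv5 was not called. Etv5 (ENSMUSG00000013089, chromosome 16, 22381309 to 22439719 on GRCm38, as for all gene positions) stood at 122, 113 and 88.1 CPM in ESC and 115, 107 and 122 CPM in EpiLC. The states overlapped, with means of 108 ± 17.8 and 115 ± 7.53 CPM. Its log2 fold change was 0.08 (SE 0.12, 95% interval -0.19 to 0.36, adjusted p = 0.566 by edgeR), an interval that lies within 2-fold, as it did for 54.5% of all genes tested. Without ESC replicate 3, the lowest ESC library, the value was -0.06.

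Etv4 (ENSMUSG00000017724, chromosome 11, 101769742 to 101785371) stood at 81.4, 79.3 and 43.0 CPM in ESC and at 37.8, 45.3 and 51.6 CPM in EpiLC. ESC replicates 1 and 2 lay above all EpiLC libraries, and ESC replicate 3 lay among them. The fall from 67.9 ± 21.6 to 44.9 ± 6.89 CPM was 1.52-fold (log2 change -0.60 with SE 0.23) and lay close to the threshold (edgeR adjusted p = 0.0485). It was not called in 10 of 14 alternatives, whose adjusted p ran from 3.61e-07 to 0.163. Without ESC replicate 3 the log2 fold change was -0.85 (adjusted p = 3.61e-07), and without any other single library the call was lost, at -0.47 without ESC replicate 1, -0.49 without ESC replicate 2, and -0.49, -0.61 and -0.72 without EpiLC replicates 1 to 3.

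Etv1 (ENSMUSG00000004151, chromosome 12, 38779380 to 38870484) was the PEA3 gene of lowest level and the only one called higher. It stood at 6.43, 6.31 and 5.05 CPM in ESC and 10.1, 8.04 and 8.48 CPM in EpiLC, with no overlap. The rise was 1.47-fold (log2 change 0.56 with SE 0.16, edgeR adjusted p = 0.0137), and the call was lost without EpiLC replicate 1, the highest library (adjusted p = 0.0582).

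Per kb of exon, Etv5 took 54.8% ± 4.64 of the summed PEA3 level in ESC and 64.9% ± 3.03 in EpiLC. In single libraries that share was 52.8%, 51.5% and 60.1% in ESC and 68.4%, 63.1% and 63.2% in EpiLC, so the states did not overlap. Etv4 took 44.3% ± 4.75 and 33.5% ± 3.29, and Etv1 0.94% ± 0.11 and 1.56% ± 0.26. With 3 libraries against 3 an exact permutation test cannot go below p = 0.1, so shares are given as values without a test. A share within a library does not depend on the scaling between libraries.

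**Figure D2:**
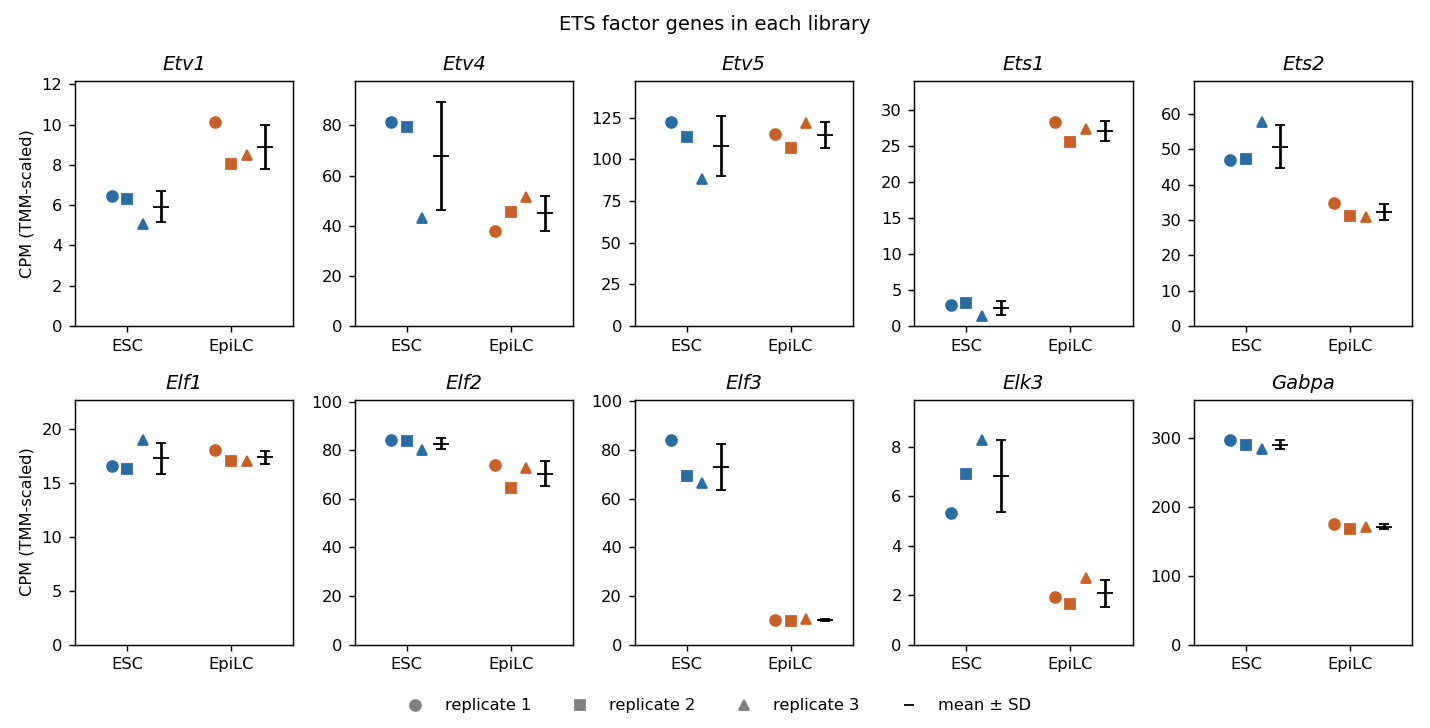
Level (y axes, TMM-scaled CPM, each starting at 0) of the 10 members in ESC (blue) and EpiLC (orange); symbols mark the replicates and bars the mean ± SD of 3 libraries. Etv4 shows ESC replicate 3 (43.0 CPM) among the EpiLC libraries, whereas Elf3, Ets1 and Gabpa separate with wide gaps.

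Of 7 genes listed as PEA3 regulators, for Capicua or for a ubiquitin ligase of PEA3 proteins, 4 rose, 2 fell and 1 was not called. That is 85.7% called against 64.6% of all genes, and the median log2 change was 0.37. Cic, which encodes the repressor Capicua, stood at 51.3, 51.8 and 80.2 CPM in ESC and 44.8, 43.3 and 41.6 CPM in EpiLC (log2 change -0.49, edgeR adjusted p = 0.0325). ESC replicate 3 was again the library apart, here the highest. Atxn1l, a partner of Capicua, rose 2.61-fold from 44.3 ± 4.97 to 115 ± 4.95 CPM, while its paralog Atxn1, at 7.47, 8.34 and 20.99 CPM in ESC and 9.23, 7.10 and 7.32 CPM in EpiLC, was not called. Cop1, the ubiquitin ligase that targets PEA3 proteins for degradation, rose 1.29-fold from 22.0 ± 0.97 CPM. Its substrate adaptors Trib2 and Trib1 rose 5.50-fold, from 2.53 ± 0.41 to 14.3 ± 1.36 CPM, and 1.58-fold. Whether these adaptors act on PEA3 proteins was not tested. The other fallen gene, Det1 of the same ligase complex, named after its values were seen, fell 1.32-fold. The count of 2 fallen was 1 without EpiLC replicate 1, 0 without EpiLC replicate 2 and 1 without EpiLC replicate 3.

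In the cascade from FGF to ERK, 9 of 20 genes rose, 5 fell and 6 were not called (median log2 fold change 0.32). The 70% called lay near the 64.6% of all genes. Fgf4, the ligand made by embryonic stem cells, fell 3.68-fold from 405 ± 5.49 to 110 ± 9.61 CPM. The receptor gene Fgfr2 rose 6.93-fold from 3.48 ± 1.40 to 23.1 ± 4.35 CPM. Map2k2, which encodes a MEK kinase, stood at 87.5 ± 12.7 CPM in ESC and 87.4 ± 2.45 CPM in EpiLC and was not called. The other MEK gene, Map2k1, fell 1.56-fold from 203 ± 4.92 to 130 ± 0.59 CPM (edgeR adjusted p = 2.16e-05).

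Of 14 genes known to respond to ERK or to be repressed by Capicua, 13 were tested, of which 9 rose, 0 fell and 4 were not called by edgeR (69.2% called, against 64.6% of all genes), and the median log2 change was 0.76. At an unadjusted p under 0.05 the count of fallen genes was also 0, as it was with DESeq2, and it was 2 without ESC replicate 3. Dusp6, an ERK phosphatase, stood at 17.6, 19.1 and 6.53 CPM in ESC and at 204, 180 and 214 CPM in EpiLC, a log2 fold change of 3.74. Myc rose 9.88-fold and Phlda1 7.26-fold, from 0.44 ± 0.14 CPM. Spry4, an ERK feedback inhibitor whose RNA stood at 12.1, 13.2 and 2.53 CPM in ESC and 12.0, 6.33 and 10.98 CPM in EpiLC, was not called, nor were Epha2 (172 ± 6.81 and 183 ± 24.6 CPM) and Spry2 (68.3 ± 9.43 and 61.9 ± 4.80 CPM).

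ESC replicate 3 lay below its group for the PEA3 genes and for most ERK-responsive genes. Its level minus the mean of ESC replicates 1 and 2, on the log2(CPM + 0.5) scale, was -0.89 for Etv4, -0.42 for Etv5, -0.31 for Etv1 and -0.92 for Ets1, and -0.14 as the median of the 10 members. This difference was below 0 for 7 of the 10 members, and above 0 for Elk3 (0.41), Ets2 (0.29) and Elf1 (0.20). On the same scale it was -1.43 for Dusp6, -2.12 for Spry4, -2.65 for Egr1 and 0.63 for Cic. The median was -0.36 over the 13 ERK and Capicua target genes, of which 11 were below 0, and -0.02 over all genes tested, with a 5th percentile of -0.60. These are differences between single libraries of the ESC group, and what sets the library apart was not tested.

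**Figure D3:**
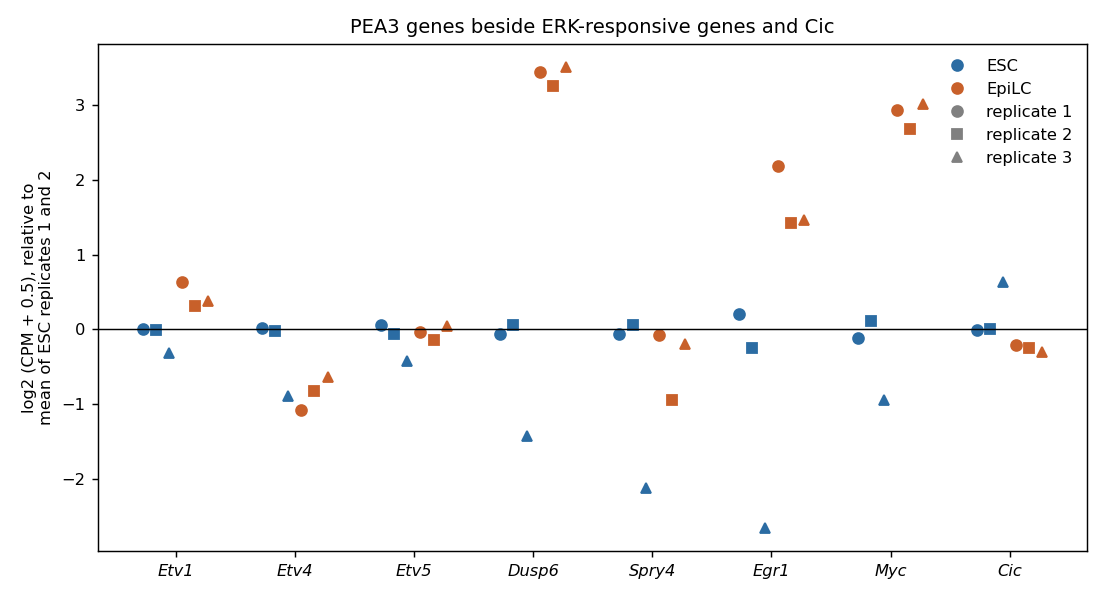
Log2(CPM + 0.5) of each library relative to the mean of ESC replicates 1 and 2 (y axis) for the PEA3 genes, 4 ERK-responsive genes and Cic; colours mark the state and symbols the replicate. ESC replicate 3 (blue triangles) lies below 0 for the PEA3 genes and the 4 ERK-responsive genes shown (Egr1 at -2.65) and above 0 for Cic (0.63).

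The founding ETS pair moved in opposite directions. Ets1 (ENSMUSG00000032035, chromosome 9, 32636221 to 32757820), a factor known from lymphoid, endothelial and mesenchymal cells, stood at 2.96, 3.20 and 1.39 CPM in ESC (57, 71 and 16 counts) and at 28.3, 25.5 and 27.3 CPM in EpiLC. Every EpiLC library lay far above every ESC library, and the rise was 10.1-fold (log2 change 3.34 with SE 0.21, edgeR adjusted p = 4.00e-06). Of all genes tested, 93.9% had a smaller absolute change. Its paralog Ets2 (ENSMUSG00000022895, chromosome 16, 95702075 to 95721051), known for its part in trophoblast, stood at 47.1, 47.4 and 57.8 CPM in ESC and 34.8, 31.2 and 30.8 CPM in EpiLC. The states did not overlap, and the fall was 1.57-fold (log2 change -0.65 with SE 0.10, edgeR adjusted p = 0.000780). Ets1 thereby went from 3.38% ± 1.53 to 36.4% ± 1.14 of the summed level of this pair per kb of exon, while the sum itself, 9.07 ± 0.94 and 8.78 ± 0.52 CPM per kb, overlapped between the states.

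Markers of cells rich in ETS1 were looked at beside this rise. Of 8 endothelial markers, Emcn was at 0 in all libraries and Cdh5 was at 0 in 5 of the 6, with 0.20 CPM in EpiLC replicate 1. The summed endothelial level ran from 16.0 to 20.9 CPM in ESC and from 33.2 to 41.4 CPM in EpiLC, most of it Flt1 in EpiLC (31.4 CPM) and Tek in ESC (12.6 CPM). Of the 3 tested, Flt1 rose from 1.74 CPM, Tek fell to 3.73 CPM and 1 was not called. Among the endothelial markers that did not pass the filter, Kdr and Robo4 were lower in EpiLC and Esam was higher, each without overlap. Kdr went from 1.66 ± 0.95 to 0.28 ± 0.18 CPM and Robo4 from 1.14 ± 0.33 to 0.15 ± 0.061 CPM. Esam went from 0.23 ± 0.046 to 0.76 ± 0.20 CPM. The 7 blood cell markers summed to 3.74 to 6.97 CPM in ESC and 12.1 to 12.8 CPM in EpiLC, with Ptprc at 0 in ESC and 0 to 0.68 CPM in EpiLC and Cd48 at 0 throughout. Of the 4 blood cell markers tested, Tal1 rose 6.75-fold (0.65 ± 0.30 to 4.28 ± 0.52 CPM) and Cd34 4.50-fold (0.85 ± 0.45 to 4.21 ± 0.40 CPM), and 2 were not called. The 8 fibroblast markers summed to 10.1 to 13.8 CPM in ESC and 14.6 to 18.7 CPM in EpiLC, with Dcn and Postn at 0 in ESC and Lum at 0 in EpiLC. Of the 5 tested, Dcn (0 to 4.33 ± 0.41 CPM), Col1a2 (0.14 ± 0.044 to 3.83 ± 0.62 CPM) and Col1a1 (0.58 ± 0.25 to 1.65 ± 0.65 CPM) rose, Pdgfrb fell from 7.61 ± 2.02 to 1.82 ± 0.37 CPM, and 1 was not called. The part of such cells in the level of Ets1 was not tested.

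Elf3 (ENSMUSG00000003051, chromosome 1, 135253575 to 135258568), of the epithelium-specific ESE subfamily, had the largest fall among the members. It stood at 83.9, 69.1 and 66.3 CPM in ESC and 10.04, 9.75 and 10.5 CPM in EpiLC. The lowest ESC library lay far above the highest EpiLC library, and the fall was 7.23-fold (log2 change -2.85 with SE 0.12, edgeR adjusted p = 4.85e-07), with values of -2.93 to -2.76 over the 14 alternatives. Of all genes tested, 91.7% had a smaller absolute change. The other ESE genes stood near 0 in both states: Elf5 had at most 0.09 CPM in any library and Ehf at most 0.30 CPM. Elf3 took 15.6% ± 1.08 of the summed ETS level per kb in ESC and 3.40% ± 0.05 in EpiLC. The 8 trophoblast markers, with Elf5 among them, summed to 51.5 to 59.5 CPM in ESC and 12.3 to 14.4 CPM in EpiLC, of which Tfap2c was 35.8 ± 1.06 CPM in ESC. Of the 4 tested, Tfap2c, Plet1 (11.9 ± 1.59 to 2.16 ± 0.50 CPM) and Ascl2 (5.55 ± 1.49 to 1.32 ± 0.36 CPM) fell, and Krt7 rose 4.32-fold to 5.15 ± 1.07 CPM. Among the trophoblast markers that did not pass the filter, Hand1 and Gcm1 were higher in EpiLC, each without overlap. Hand1 went from 0.073 ± 0.090 to 0.53 ± 0.18 CPM and Gcm1 from 0.25 ± 0.020 to 0.56 ± 0.23 CPM. The defining marker Cdx2 had at most 0.52 CPM, and the part of such cells in the level of Elf3 or Ets2 was not tested.

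In the ELF subfamily, whose genes are widely expressed, Elf2 and Elf4 fell and Elf1 was not called. Elf1 (ENSMUSG00000036461, chromosome 14, 79481194 to 79582494) stood at 16.6, 16.3 and 18.9 CPM in ESC and 18.0, 17.0 and 17.0 CPM in EpiLC, with full overlap. Its log2 fold change of 0.01 (95% interval -0.22 to 0.25) was not called (adjusted p = 0.920 by edgeR) and changed sign in 5 of 14 alternatives. Elf2 (ENSMUSG00000037174, chromosome 3, 51252720 to 51340663) stood at 84.1, 83.9 and 80.2 CPM in ESC and 73.9, 64.5 and 72.9 CPM in EpiLC. The states did not overlap, and the fall was 1.18-fold (log2 change -0.23 with SE 0.07, edgeR adjusted p = 0.0227). The call was lost in 5 of 14 alternatives, with adjusted p of 0.0546 without ESC replicate 1, 0.0584 without ESC replicate 2 and 0.0834 without EpiLC replicate 2. The third gene, Elf4, fell 4.19-fold from 10.5 ± 2.12 to 2.48 ± 0.37 CPM.

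Among the TCF subfamily, partners of the serum response factor SRF, Elk3 fell, Elk4 rose and Elk1 was not called. Elk3 (ENSMUSG00000008398, chromosome 10, 93247414 to 93311135), known as a repressor until ERK phosphorylates it, stood at 5.34, 6.89 and 8.28 CPM in ESC and 1.91, 1.62 and 2.68 CPM in EpiLC (19, 19 and 30 counts). The states did not overlap, and the fall was 3.24-fold (log2 change -1.70 with SE 0.26, edgeR adjusted p = 0.000533). Elk4 rose 1.52-fold from 11.5 ± 1.99 to 17.2 ± 0.15 CPM, and Elk1 was not called (22.7 ± 1.09 and 23.7 ± 1.54 CPM). Elk3 went from 19.9% ± 3.32 to 6.02% ± 1.48 of the summed TCF level per kb, and the sum overlapped between states (7.52 ± 0.43 and 7.54 ± 0.30 CPM per kb).

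Of 12 genes listed for SRF, its cofactors and the immediate early genes it controls with the TCF factors, 10 were tested, of which 6 rose, 0 fell and 4 were not called by edgeR (60% called, against 64.6% of all genes, median log2 fold change 0.76). At an unadjusted p under 0.05, and with DESeq2, 0 fell, and 1 fell without ESC replicate 3. Srf rose 2.38-fold from 50.2 ± 2.06 to 119 ± 3.50 CPM. Egr1 stood at 10.1, 7.21 and 0.96 CPM in ESC and 41.0, 24.0 and 24.7 CPM in EpiLC, and rose 4.57-fold. Egr2 rose 3.25-fold and Junb 2.74-fold, while Ier2 was not called (114 ± 25.04 and 105 ± 8.62 CPM).

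Gabpa (ENSMUSG00000008976, chromosome 16, 84834925 to 84863779) was the ETS gene of highest level per kb of exon in both states. It stood at 296, 290 and 284 CPM in ESC and 175, 167 and 171 CPM in EpiLC. Replicates lay close together and the states were far apart, and the fall was 1.70-fold (log2 change -0.76 with SE 0.05, edgeR adjusted p = 8.20e-06). Over the 14 alternatives the value ran from -0.83 to -0.70, with each past the threshold.

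The genes of its partner subunits, which lack an ETS domain and carry the activating part of GABP, went the other way. Gabpb1 went from 35.3 ± 1.86 to 53.6 ± 2.03 CPM, a rise of 1.52-fold (log2 change 0.60 with SE 0.08, edgeR adjusted p = 0.000188), and Gabpb2 from 114 ± 5.16 to 131 ± 4.92 CPM, a rise of 1.15-fold (log2 change 0.21, edgeR adjusted p = 0.0216). Per kb of exon the ratio of Gabpb1 to Gabpa was 0.083, 0.094 and 0.091 in ESC and 0.22, 0.23 and 0.24 in EpiLC. The ratio of Gabpb2 to Gabpa went from 0.14 ± 0.0035 to 0.28 ± 0.016. The size of both ratios depends on the gene length used, but their relative change between the states does not. Merged exons span 7752 bases for Gabpb1, 15465 for Gabpb2 and 5687 for Gabpa. Their longest transcripts span 4153, 8661 and 4987 bases. Of the 11 genes listed as partners and targets of GABP, 3 rose, 3 fell and 5 were not called. The 54.5% called lay below the 64.6% of all genes, and over the 14 alternatives 2 to 4 were called higher and 2 to 4 lower. The whole interval of each of the 11 lay within 2-fold, against 54.5% of all genes. The cofactor gene Hcfc1 rose 1.59-fold, the ATP synthase gene Atp5b fell 1.41-fold, and the mitochondrial transcription factor gene Tfam (113 ± 12.9 and 122 ± 1.43 CPM) and the coactivator gene Pprc1 (87.9 ± 9.44 and 88.8 ± 2.52 CPM) were not called.

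**Figure D4:**
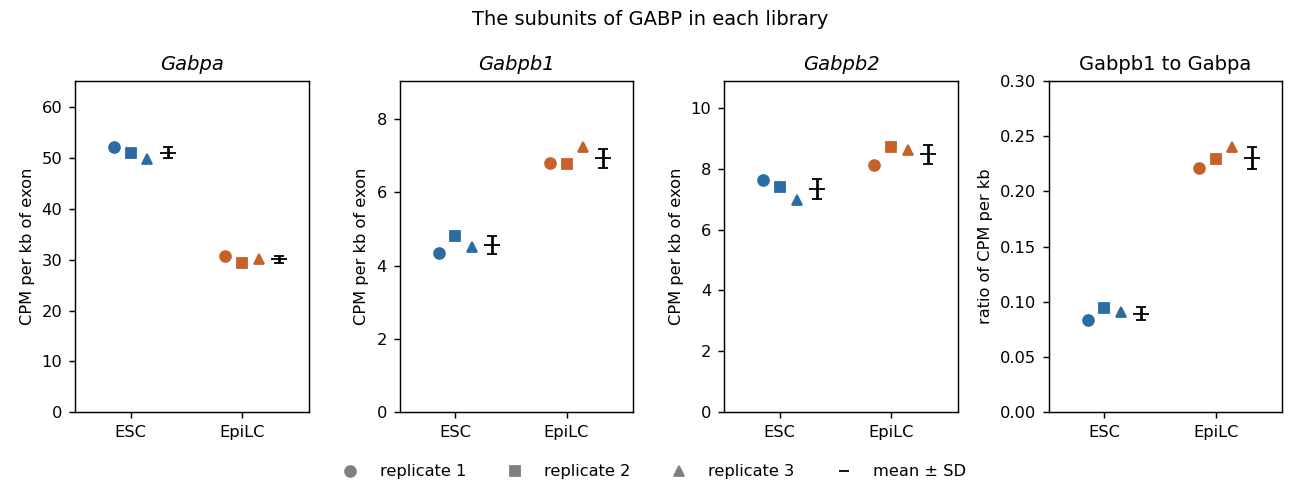
Level of Gabpa, Gabpb1 and Gabpb2 (y axes, CPM per kb of exon, starting at 0) and the ratio of Gabpb1 to Gabpa in the libraries of both states; bars are mean ± SD of 3 libraries. Gabpa was lower and both partner genes were higher in EpiLC, and the ratio went from about 0.089 to 0.23.

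The counts of 5 members could include reads of a gene on the opposite strand, since the strand setting of the counting is not given in the sources used here. Exons of Gabpa overlap those of Atp5j by 397 bases (6.98% of its exon length), those of Elk3 overlap Cdk17 by 316 bases (6.95%) and those of Elf1 overlap Wbp4 by 327 bases (4.85%). Atp5j stood at means of 45.9 and 34.8 CPM, Cdk17 at 67.2 and 96.1 CPM, and Wbp4 at 58.9 and 42.7 CPM, in ESC and EpiLC. The genes opposite Elf2 and Elf3 stood below 1 CPM in both states. Values of Gabpa, Elk3 and Elf1 are uncertain to that extent.

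Set in the whole family, the members carried most of the ETS RNA. Per kb of exon the 27 ETS genes summed to 225, 212 and 194 CPM per kb in ESC and 135, 130 and 138 CPM per kb in EpiLC. The states did not overlap, and the 10 members took 73.3% ± 1.49 of the sum in ESC and 72.1% ± 1.11 in EpiLC, shares that overlapped. In ESC the order of mean levels was Gabpa (51.0 ± 1.10 CPM per kb), Erf (35.7 ± 4.76), Elf3 (32.97 ± 4.27), Etv5 (26.3 ± 4.34) and Etv4 (21.9 ± 6.95). Libraries of Erf and Elf3 overlapped, as did those of Etv5 and Etv4, and those of Elf3 and Etv5 did not. In EpiLC it was Gabpa (30.1 ± 0.64), Etv5 (27.9 ± 1.84), Erf (17.9 ± 0.86), Etv4 (14.5 ± 2.22) and Elf2 (7.36 ± 0.54). There the libraries of Gabpa and Etv5 overlapped, and each other neighbouring pair of these 5 was apart. The members went on in ESC with Ets2 (8.78 ± 1.05), Elf2 (8.65 ± 0.23), Elf1 (2.56 ± 0.22), Elk3 (1.503 ± 0.32), Etv1 (0.45 ± 0.058) and Ets1 (0.30 ± 0.12 CPM per kb), and libraries of Ets2 and Elf2 overlapped. In EpiLC they went on with Ets2 (5.59 ± 0.38), Elf3 (4.56 ± 0.18), Ets1 (3.19 ± 0.17), Elf1 (2.57 ± 0.084), Etv1 (0.67 ± 0.083) and Elk3 (0.45 ± 0.12 CPM per kb), with none of these 6 overlapping the next of them. Ets1 moved from rank 19 of the 27 genes to rank 10, and Elf3 from rank 3 to rank 8.

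**Figure D5:**
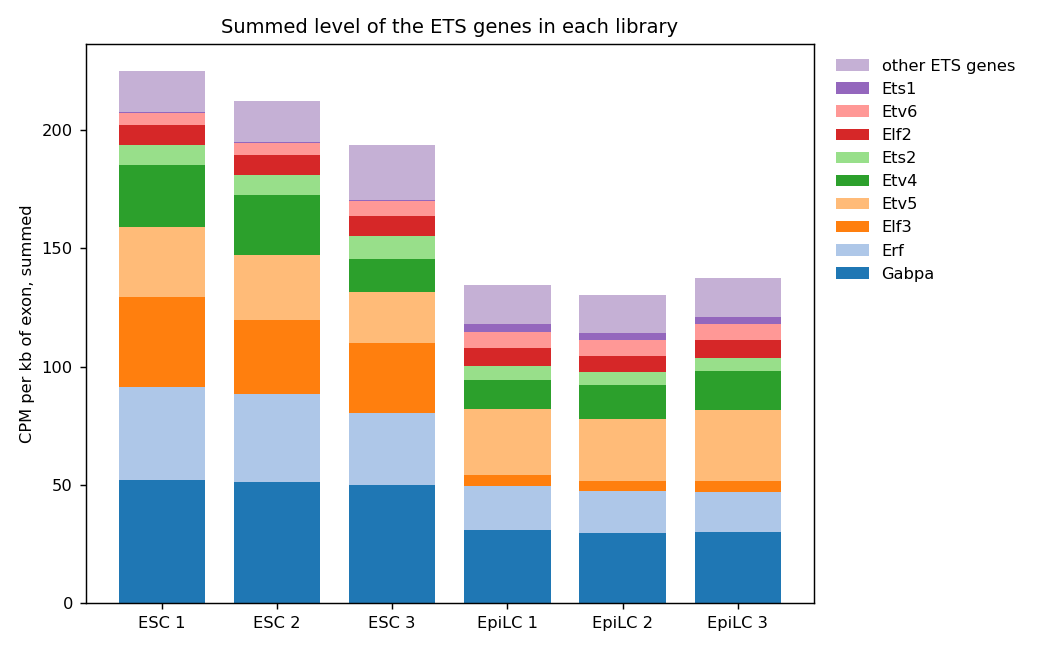
CPM per kb of exon (y axis, starting at 0) summed over all 27 ETS genes in each library, with the 9 genes of most interest as coloured segments. The bars are taller in ESC (194 to 225) than in EpiLC (130 to 138), and the Elf3 segment is thin in EpiLC (3.40% of the sum).

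Of the 9 other ETS genes tested, 3 rose (Etv2, Elk4 and Etv6), 4 fell (Spic, Elf4, Spi1 and Erf) and 2 were not called (Elk1 and Etv3). That is 77.8% called, against 64.6% of all genes, 32% higher and 32.6% lower. The median log2 change of these 9 genes was -0.21, against 0.01 over all genes tested. Erf, a repressor that ERK exports from the nucleus, fell 2.00-fold from 129 ± 17.2 to 64.5 ± 3.11 CPM. Etv2, a factor of blood and endothelial progenitors, rose 3.29-fold from 0.49 ± 0.10 to 1.55 ± 0.57 CPM, and the repressor gene Etv6 rose 1.28-fold from 31.9 ± 5.39 CPM. Spic stood at 5.71, 5.54 and 17.9 CPM in ESC, highest in replicate 3, and with no count in any EpiLC library, which makes it at least 90.8-fold lower in EpiLC against a floor of 3 counts over the group. Spi1 fell 4.19-fold from 1.499 ± 0.45 CPM. Etv3 stood at 33.4 ± 2.93 and 28.8 ± 2.83 CPM. Fli1, which did not pass the filter, had 2 counts over the ESC libraries and 39 over the EpiLC libraries (ratio of levels 31.4, exact 95% interval 8.14 to 269, for counting error only).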

How the data were processed

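Counts came from 6 libraries, 3 of ESC and 3 of EpiLC, grouped by their titles. The authors deposited raw read counts per Ensembl gene, 1 column per library. Per the submitters' processing notes, cutadapt, STAR, featureCounts and DESeq2 were used with build mm10; for versions, annotation release, strand and multi-mapping settings, nothing is stated (not given in the sources used here). Per the labels' protocols, RNA was extracted with Trizol, depleted with Ribo-Zero Gold and prepared with a Kapa stranded kit. The 92 spike-in rows held 0 counts and were left out. Identifiers were matched to GENCODE M21 on GRCm38, the assembly of mm10, for 51633 of 51826 genes.

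The counts were fitted for all genes with edgeR 4.0.16 (TMM, quasi-likelihood with the legacy option off, group as single term) in R 4.3.3. Genes were kept by filterByExpr at default settings (10 counts per library, 15 in total). Tests were two-sided, with Benjamini-Hochberg adjustment over 14996 genes. The scripts were tested on simulated counts. Alternatives were RLE, upper quartile and library-total scaling, DESeq2 1.42.0, limma-voom (limma 3.58.1), no filter, a filter of 1 CPM in 3 libraries, a replicate block, and leaving out each library. Levels between genes are CPM per kb of merged exons. Where no read was counted, up to 3 counts remain possible, or 0.135 to 0.301 CPM by library, for counting error only.

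Members and gene lists were chosen with earlier results of these data known. The text names the members, the ETS genes that passed the filter, 7 fixed partner genes (Cic, Cop1, Gabpb1, Gabpb2, Srf, Dusp6, Spry4), and per further list up to 3 called genes of largest change with at least 1 CPM and up to 2 uncalled ones; other genes are given as cell type markers, as overlapping genes, or where few counts or a single library called for it. Some genes that this rule names are not reported here.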

Additional observations from a re-analysis of the deposited data

How the results depend on the processing

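Elf3, Ets1, Elk3, Ets2 and Gabpa kept their direction and call in all 14 alternatives. Etv4 lost its call with upper quartile scaling (log2 fold change -0.55), library totals (-0.53), limma-voom (-0.58), the 1 CPM filter (-0.60) and the replicate block (-0.56), and ran from -0.85 to -0.47 when a library was left out. Elf2 lost its call with upper quartile scaling (-0.19) and library totals (-0.17), and ran from -0.27 to -0.18 over left-out libraries; Etv1 ran from 0.46 to 0.62. The uncalled values changed sign for Etv5 without ESC replicate 3 (-0.055, highest 0.16) and for Elf1 with DESeq2 (-0.013) and with no filter (-0.056), and Elf1 ran from -0.043 to 0.062 over left-out libraries, with -0.030 without ESC replicate 1, -0.043 without ESC replicate 2 and -0.012 without EpiLC replicate 1. The causes were not tested. Leaving out a library gave 1 to 2 members called higher and 4 to 6 called lower. Called lower were also 0 to 2 genes listed as PEA3 regulators, 0 to 2 ERK and Capicua targets and 0 to 1 SRF and immediate early genes. With library totals, as with upper quartile scaling, 4 members and 1 gene listed as a PEA3 regulator were called lower. With the longest transcript as gene length the share of the ETS level in EpiLC was 73.3% for the members, 21.3% for Gabpa, 2.99% for Elf3 and 17.9% for Etv5; in ESC it was 14.1% for Elf3 and 10.98% for Etv5. The share of Etv5 in the PEA3 level was then 48.9% in ESC and 59.0% in EpiLC. The labels share replicate numbers but nothing says that a number marks a common culture, and the deviations of same-numbered libraries correlated at -0.11, 0.01 and -0.18, so the replicate block rests on a number alone; it called 9231 genes in place of 9686 and changed the call of no member but Etv4. Scaling moved the median log2 fold change of all genes by at most 0.07. Depth limits Spic, Fli1, Spi1, Etv2, Elf4 and Elk3, which had 0 to 30 counts per library in their lower state.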
